A study of Arabidopsis thaliana with 39 samples.

Results

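The 58 genes described here had a lower relative RNA level in the root epidermis of Arabidopsis after 36 h without iron. The level was lower than in epidermis kept on iron for the same time, and also lower than at the start of the course. They were chosen by values of the deposited table: a gene was taken when its value on -Fe at 36 h, set against +Fe at 36 h and against 0 h, gave log2 ratios that were both at or below -0.75. By its title the table holds differentially expressed genes of the epidermis, so a share of its genes is not a share of all expressed genes. Of the 806 genes of the table, 63 met both conditions. Leaving out 10 genes by name removed 5 of these, among them the ferritins FER1, FER3 and FER4, and left 58. A further 48 genes were low only against +Fe and 39 only against 0 h. The ratios are of RPKM + 1, where RPKM is the read number of a gene scaled by its length and by a read total.

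Seedlings were of the pWER::GFP line in the Col-0 background, in which the WEREWOLF promoter marks epidermal cells with a green fluorescent protein. They grew for 7 days on +Fe medium with 0.1 mM FeEDTA (0 h) and were then moved to -Fe medium, which held 300 μM ferrozine, an iron chelator, or to fresh +Fe medium, and roots were taken 6, 12, 18, 24, 30 and 36 h later. Protoplasts, cells freed of their walls, were sorted by fluorescence before sequencing. The labels give 39 libraries, 3 for each of 13 groups. Replicates are numbered 1 to 3 except at 36 h, where they are 1, 2 and 4 on -Fe and 1, 3 and 4 on +Fe. The table gives 1 value per gene and group, so the values have no spread, no test and no replicate check. Every comparison below is therefore one of sizes. The labels state that FeEDTA was left out of -Fe medium and the written methods list it for both media, so the -Fe medium is described here by its chelator.

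Iron is built into heme, into iron-sulfur clusters and into the free metal sites of many enzymes. Heme is made from the tetrapyrrole pathway, which also yields chlorophyll and siroheme, and iron-sulfur clusters are assembled in plastids, mitochondria and the cytosol. Epidermal cells of Arabidopsis roots take up iron by acidifying the soil, reducing ferric iron and importing ferrous iron, and plants on low iron generally raise this uptake machinery and lower proteins that store or hold iron.

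A value was close to a share of the reads of the 806 genes, since the sum of RPKM times exon length varied by 0.325% (coefficient of variation) over the 13 groups, against 2.39% for the plain sum of RPKM. The 10 most abundant genes held 26.8% to 33.3% of that weighted sum, with 32.1% on -Fe and 29.3% on +Fe at 36 h. Levels below are therefore relative to the other genes of the table and are not amounts of RNA per cell. Read depth could not be read from the values, and fewer cells of a type and less RNA per cell cannot be told apart in sorted bulk cells. Of 7 epidermal markers only GL2 was in the table, and none of 15 markers of cortex, endodermis and stele was. A marker missing from the table was not shown to be missing from the cells, so these markers could not settle which cells were sorted. GL2 was present in all 13 groups, at 98.1 to 188 RPKM on -Fe, against 154 to 409.8 RPKM on +Fe and 189 RPKM at 0 h. BRN1, the single root cap marker of 3 in the table, ranged from 1384 to 2057 RPKM over the 13 groups and was above GL2 in each. It stood at 1690 RPKM on -Fe and 1784 RPKM on +Fe at 36 h. The share of root cap cells in the sort was not tested.

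On this relative scale the RNA of these genes was reduced but not gone. None of the 58 was listed at 0 on -Fe at 36 h, and only AT3G49160 was under 1 RPKM. The -Fe value at 36 h was 40.7% of the +Fe value as a median, with a range of 8.06% to 58.1%, and 40.1% of the 0 h value, with a range of 5.69% to 57.97%. The genes spanned low to very high levels, with a mean over the 13 groups of 8.22 to 13899 RPKM and a median of 209 RPKM, beside 224 RPKM for the whole table. They held 2.04% of the weighted sum on -Fe at 36 h, against 4.52% on +Fe at 36 h and 4.64% at 0 h. On +Fe, 56 of the 58 had a value at 36 h within 0.75 of 0 h on the log2 scale, beside 89.1% of the table, and the choice of genes used both of these columns.

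Before the other results, the stretches just ahead of 3 of these genes are shown, chosen from the 2 courses found below: HEMA1 and ABCI8, which were steady on +Fe and declined on -Fe, and IGMT3, which peaked at 6 h. Each is the 250 bases before the gene's annotated start in the RefSeq annotation of the TAIR10.1 assembly, printed 5′ to 3′ on the gene's own strand, which is the minus strand for all 3. HEMA1 lies at chr1:21626403-21626652, ABCI8 at chr4:2429900-2430149 and IGMT3 at chr1:7391604-7391853. Capitals mark matches on either strand to the G-box CACGTG, the W-box TTGACC or TTGACT, the abscisic acid response core ACGTGG or ACGTGT, the evening element AAATATCT, the sugar element TATCCA and the RY core CATGCA, of which the G-box and the abscisic acid core can overlap.
HEMA1: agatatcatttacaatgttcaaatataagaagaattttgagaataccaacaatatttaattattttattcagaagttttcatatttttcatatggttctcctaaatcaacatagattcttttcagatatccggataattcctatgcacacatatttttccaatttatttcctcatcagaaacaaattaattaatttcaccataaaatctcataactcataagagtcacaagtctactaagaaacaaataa
ABCI8: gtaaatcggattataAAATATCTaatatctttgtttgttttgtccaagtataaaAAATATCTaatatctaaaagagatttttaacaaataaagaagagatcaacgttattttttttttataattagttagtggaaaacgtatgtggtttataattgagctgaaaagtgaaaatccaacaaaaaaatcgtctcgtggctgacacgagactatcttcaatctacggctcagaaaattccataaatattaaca
IGMT3: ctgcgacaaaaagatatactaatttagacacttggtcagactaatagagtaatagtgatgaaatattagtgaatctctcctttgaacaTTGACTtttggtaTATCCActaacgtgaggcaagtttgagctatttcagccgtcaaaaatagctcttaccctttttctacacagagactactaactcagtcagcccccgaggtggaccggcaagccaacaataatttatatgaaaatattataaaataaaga
HEMA1 had no match, ABCI8 had 2 evening elements, and IGMT3 had a W-box and a sugar element. Over all 58 windows the sugar element was found in 17 (29.3%), beside 15.4% of the 806 windows of the table and 13.1% of 37883 annotated gene starts. The W-box was in 25 (43.1%), beside 31.1% and 27.5%. Among the 31 genes that were high on +Fe at 6 h these motifs were in 35.5% (sugar element) and 51.6% (W-box), and among the 24 that were steady they were in 20.8% and 33.3%. The G-box was in 12.1% of the 58, beside 9.06% of the table and 5.4% of all starts, and the abscisic acid core in 11 of the 58, beside 161 of the 806 and 14.2% of all starts. The evening element was in 6.9%, beside 6.45% and 4.34%, and the RY core in 6.9%, beside 10.7% and 8.84%. A match of letters is a description of the window and shows no bound factor.

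The first question was when the -Fe values parted from +Fe at the same hour, in columns that the rule did not use. Those columns may have helped to place genes in the table, whose genes were already picked as differentially expressed. At 6 h, 26 of the 58 genes (44.8%) were at or below -0.75, beside 23.3% of the table. Genes at or below -0.75 are called low in what follows. The number of low genes was 33 at 12 h, beside 23.6% of the table, and 31 at 18 h, beside 11.4%. It reached 53 at 24 h, beside 30.1%, and 54 at 30 h, beside 26.2%. All 58 were low at 36 h by the choice, beside 13.8% of the table. At or above 0.75 there were 3 genes at 6 h, beside 9.18% of the table, and 1 at 18 h, beside 6.82%, with none at 12, 24 or 30 h, beside 10.8%, 9.31% and 11.3%. The median log2 ratio of the 58 genes was -0.59, -0.81, -0.78, -1.56, -1.74 and -1.25 at 6, 12, 18, 24, 30 and 36 h. The median gap was therefore wider at 30 h than at 36 h, and the share of low genes in the whole table was also larger at 30 h (26.2% against 13.8%). Of the 58, 38 had a lower ratio at 30 h, a count that was not made over the whole table. In 55 of the 58 both -Fe values at 24 and 30 h lay below both +Fe values of those hours, beside 38.5% of the table.

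Against 0 h the lower values on -Fe came later. Only 4 genes were at or below -0.75 at 6 h, beside 7.07% of the table, and 6 at 12 h, beside 6.08%. From 18 to 30 h the numbers were 18, 42 and 50, beside 10.3%, 12.2% and 17.7% of the table, before the 58 fixed by the choice at 36 h (12.7%). With each group centred on its own median the 42 at 24 h became 26, beside 6.2% of the table in place of 12.2%, and the median of all genes lay 0.27 lower on -Fe at 24 h than at 0 h on the log2 scale. In the other direction 17 genes were higher on -Fe at 6 h than at 0 h, beside 15.3% of the table, and 7 at 12 h, beside 11.3%. There were 2 at 18 h (10.9%) and none at 24 or 30 h (4.96% and 5.96%). When -Fe was set against the mean of all 7 +Fe groups in place of the same hour, the number of low genes was 3 at 6 h and 14 at 12 h, beside 4.34% and 6.7% of the table.

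Many of the genes were also higher on +Fe after transfer than at 0 h. Of the 58, 31 were at least 0.75 above 0 h on +Fe at 6 h, beside 28.2% of the table, and 29 at 12 h, beside 26.3%. From 18 to 36 h the numbers were 17, 22, 17 and 1, beside 16%, 25.2%, 17.6% and 5.58%. Few were low on +Fe against 0 h, namely 3, 3, 5, 3, 5 and 1 gene from 6 to 36 h, beside 23.4%, 19.1%, 13%, 14.9%, 15.5% and 5.33% of the table. The highest of the 13 values of a gene belonged to the 6 h group on -Fe for 2 of the 58 and to a +Fe group for the others, namely the groups at 0, 6, 12, 24 and 30 h for 5, 30, 5, 13 and 3 genes. The lowest belonged to -Fe for 57 genes, with 2, 22 and 33 of them at 24, 30 and 36 h, and to +Fe at 6 h for 1, AT1G62975. These places follow in part from the choice of genes. By it the lowest could not be 0 h or +Fe at 36 h, nor the highest -Fe at 36 h. The same counts were not made over the whole table.

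Genes are called high here when +Fe at 6 h was at least 0.75 above 0 h (31 genes), steady when it was within 0.75 (24 genes) and low when it was at least 0.75 below (3 genes). The high and steady genes followed different courses on -Fe. The 31 high genes had a median log2 ratio of -Fe to 0 h of 0.95, 0.32, -0.19, -0.87, -1.32 and -1.19 at 6, 12, 18, 24, 30 and 36 h. On -Fe at 6 h, 28 of the 31 lay between their +Fe value and their 0 h value, beside 84.6% of the 227 genes of the table that were high on +Fe at 6 h. At least 0.75 above 0 h on -Fe were 17 of the 31, beside 50.2% of the 227, and 3 of the 31 were below 0 h. For the 24 steady genes the same medians were -0.24, -0.47, -0.70, -1.18, -1.41 and -1.36, a decline without a peak.

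**Figure D1:**
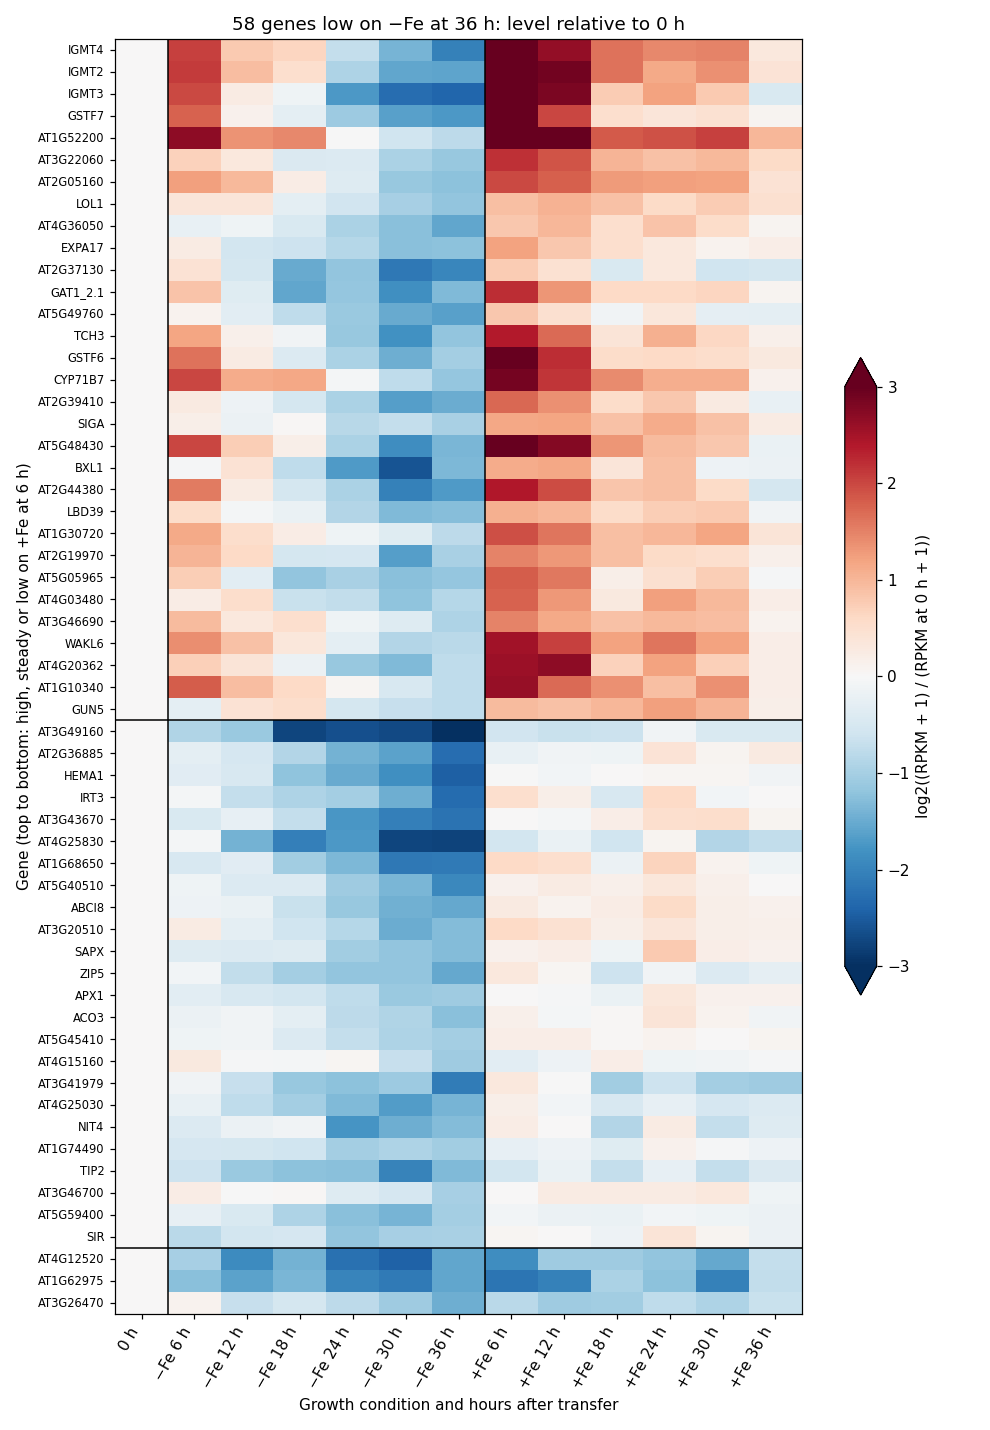
Level of each of the 58 genes (rows) in the 0 h group, the 6 -Fe groups and the 6 +Fe groups (columns), as the log2 ratio of RPKM + 1 to 0 h, with 1 value per group and colours that end at 3 and -3. The 31 genes in the upper block are red on +Fe at 6 h, 28 of them also on -Fe at 6 h, and all are blue on -Fe at 36 h, the 24 in the middle block are mostly pale on +Fe, and the 3 in the bottom block are mostly blue in both media.

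The counts at each hour were then set beside all genes of the table with the same +Fe course. Of the 31 high genes, 24, 27 and 23 were low between -Fe and +Fe at 6, 12 and 18 h, and all 31 at 24 and 30 h. The whole table held 227 genes that were high on +Fe at 6 h, these 31 included, and 78.9%, 79.7%, 35.7%, 85.9% and 77.5% of them were low at 6, 12, 18, 24 and 30 h. At 6 and 12 h the 31 high genes were thus near the share of all genes with the same +Fe value at 6 h, and at 18 h they were not. Among the 24 steady genes 2, 5, 8, 21 and 22 were low at those 5 hours. The 390 steady genes of the table, these 24 included, were low in 2.05%, 2.05%, 2.56%, 11.8% and 8.46% of cases. At 36 h, an hour the choice used, 34.4% of the 227 and 7.18% of the 390 were low. The +Fe value at 6 h enters both the grouping and the 6 h ratio, so the link between them at that hour is partly built in. GL2, the epidermal marker of the table, had 168 RPKM on -Fe against 404 RPKM on +Fe at 6 h and 189 RPKM at 0 h, and the part of cell identity in these counts was not tested.

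**Figure D2:**
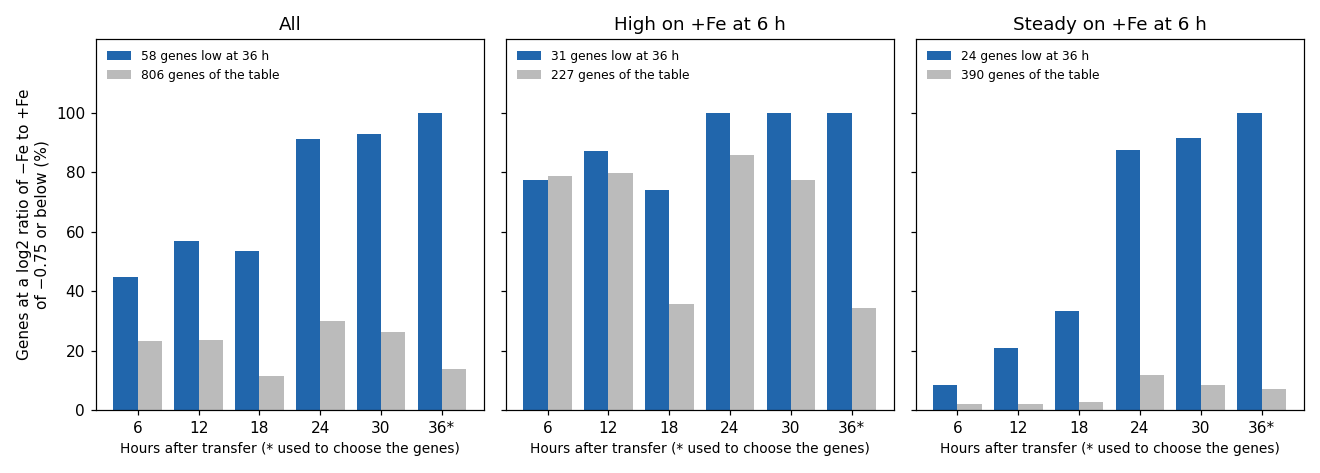
Percentage of genes with -Fe at or below +Fe by 0.75 on the log2 scale at each hour, for the genes low at 36 h (blue) and for all genes of the table in the same set (grey), with all genes on the left, genes high on +Fe at 6 h in the middle and genes steady at 6 h on the right. The blue and grey bars are close at 6 and 12 h in the middle panel (24 of 31 against 78.9% at 6 h) and far apart from 24 h in the right panel (21 of 24 against 11.8% at 24 h), and bars at 36 h follow from the choice of genes.

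The time from which a gene stayed at or below -0.75 through 36 h was 6, 12, 18, 24, 30 and 36 h for 19, 3, 9, 22, 1 and 4 genes. Of the 19 genes that were low at all 6 hours, 18 were high on +Fe at 6 h and 1, AT1G68650, was steady. Of the 22 that stayed low from 24 h, 13 were steady, 8 were high and 1 was low on +Fe at 6 h. That every gene was low against +Fe at 36 h follows from the choice of genes. Times of this kind were not counted over the whole table, so these numbers have no share to stand beside.

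The genes are now taken by role. Roles were assigned by hand after the values were seen and are a way of ordering the text. In the lists that follow, values stand in the order 6, 12, 18, 24, 30 and 36 h.

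Genes of tetrapyrrole synthesis, iron-sulfur clusters and heme enzymes made up 9 of the 58. All 9 were low against +Fe at 24 and 30 h, when 91.4% and 93.1% of the 58 and 30.1% and 26.2% of the table were. At 6, 12 and 18 h 3, 2 and 3 of the 9 were low, and their median ratio was -0.35 at 18 h and -1.57 at 24 h. HEMA1, the glutamyl-tRNA reductase that opens the tetrapyrrole pathway, was the third lowest of the 58 at 36 h. Its 250 bases are printed above. HEMA1 had 207, 189, 112, 91.3, 73.2 and 47.2 RPKM on -Fe, against 261, 249, 266, 272, 275 and 245 RPKM on +Fe and 263 RPKM at 0 h. Its +Fe values kept within 245 to 275 RPKM while each -Fe value was below the one before, and the ratio to +Fe was -2.35 at 36 h, 5.2-fold lower by RPKM. ABCI8, the SufB scaffold protein of iron-sulfur cluster assembly in plastids, had 92.5, 89.4, 64.3, 46.3, 37.4 and 34.8 RPKM on -Fe, against 124, 110.1, 121, 153, 116 and 113 RPKM on +Fe and 103 RPKM at 0 h. Its -Fe values declined in the same stepwise way and its ratio was -1.67 at 36 h. Part of the ABCI8 transcript, 84 bases, overlaps AT4G04760 on the other strand. GUN5, the subunit of magnesium chelatase at the branch to chlorophyll, was scarce, with 7.6 RPKM on -Fe against 15.5 RPKM on +Fe at 36 h and 13.6 RPKM at 0 h. It lay close to the threshold against 0 h, at -0.77.

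ACO3, an aconitase that carries an iron-sulfur cluster, was among the 5 most abundant of the 58. ACO3 had 1497, 1572, 1388, 989, 913 and 710.4 RPKM on -Fe, against 1903, 1639, 1758, 2218, 1820.1 and 1582 RPKM on +Fe and 1704 RPKM at 0 h. The -Fe value passed below the threshold at 24 h, with ratios of -0.06 at 12 h and -1.16 at 24 h. SIR, sulfite reductase, holds both siroheme and an iron-sulfur cluster and was the single gene of a 10-gene sulfate assimilation list that the table held. SIR had 459.9, 547, 568, 357, 401 and 412 RPKM on -Fe, against 836, 817, 723, 1061, 853 and 709 RPKM on +Fe and 807 RPKM at 0 h. It was low at 6 h (-0.86) and again from 24 h (-1.57), and its ratio of -0.78 at 36 h was among the 3 nearest inside the threshold. With each group centred on its own median that ratio was -0.71, outside the threshold, and SIR no longer met the rule.

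The heme enzymes were led by the ascorbate peroxidases, which remove hydrogen peroxide. APX1, the cytosolic enzyme, is known to be induced by excess iron and is the only one of the 58 in a 16-gene list of iron storage and sufficiency genes. Of that list 4 genes were in the table, all 4 were low in both comparisons, and the other 3 were the ferritins left out by name. APX1 had 2733, 2420.3, 2304, 2002, 1553 and 1616 RPKM on -Fe, against 3418, 3288, 2937, 4290.1, 3704 and 3705 RPKM on +Fe and 3381 RPKM at 0 h. Its -Fe values were the lower ones at every hour, with ratios of -0.35 at 18 h and -1.10 at 24 h. SAPX, the plastid stromal enzyme, had 225 RPKM on -Fe at 36 h, against 609.9 RPKM on +Fe and 558 RPKM at 0 h, and ratios of -0.24 at 18 h and -1.83 at 24 h. AT2G37130, a class III peroxidase of the cell wall space, had 901, 465, 235, 294, 150.0 and 172 RPKM on -Fe, against 1134, 922, 483, 825, 442 and 461 RPKM on +Fe and 667 RPKM at 0 h. Values on +Fe were themselves below 0 h at 18, 30 and 36 h, and the ratio of -Fe at 36 h to 0 h was -1.95. It was the only one of 5 class III peroxidases in the table to be chosen. CYP71B7, the only one chosen of 18 cytochrome P450 enzymes, had 155 RPKM on -Fe at 36 h, against 381 RPKM on +Fe and 346 RPKM at 0 h.

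**Figure D3:**
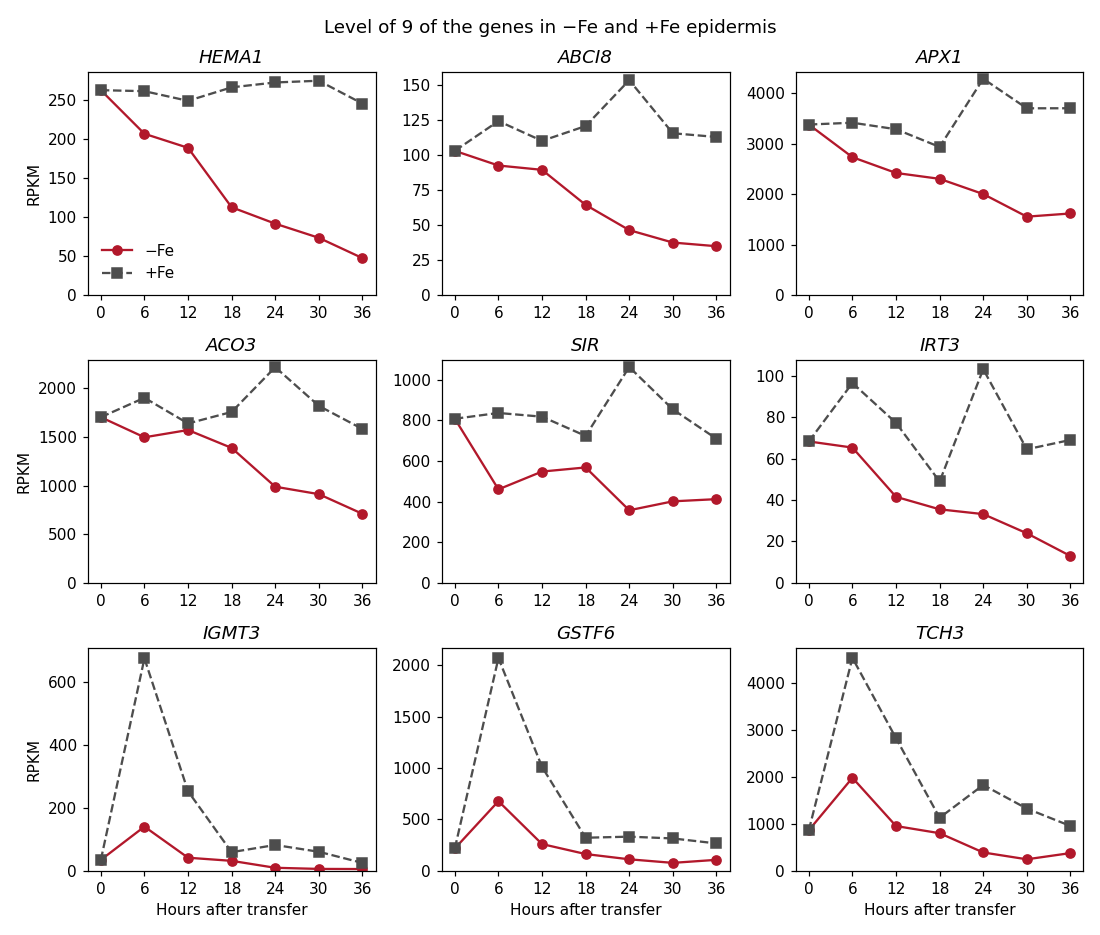
RPKM (vertical axis, from 0, a scale for each gene) against hours after transfer for 9 of the genes, with -Fe as red circles and +Fe as grey squares and 1 value per point. HEMA1, ABCI8, APX1, ACO3, SIR and IRT3 lie below 0 h at every hour on -Fe, while IGMT3, GSTF6 and TCH3 peak at 6 h in both media, higher on +Fe.

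Not every iron enzyme of the table was low. A list of 13 genes for tetrapyrrole, iron-sulfur and heme enzymes was drawn up after the values were seen, and 7 of the 13 are among the 58. It held 7 that were at or below -0.75 against +Fe at 36 h, beside 13.8% of the table. At or above 0.75 were 4, beside 9.8%. The list left out other heme enzymes of the table, so it gives no share for such enzymes as a class. Of 18 cytochrome P450 enzymes 3 were low against +Fe at 36 h, of 5 class III peroxidases 1, and none of either was high. NIA1 and NIA2, the nitrate reductases with a heme domain, had ratios to +Fe of 1.205 and -0.453 and ratios to 0 h of -0.11 and -1.38. GLT1, an iron-sulfur glutamate synthase, stood at -0.31. FRO2, FRO3 and FRO4, ferric reductases that bind heme and belong to iron acquisition, stood at 1.26, 2.37 and 1.97. In a list of 27 iron uptake and deficiency genes, 13 were in the table, 11 of these were high at 36 h against +Fe and none was low.

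IRT3 and ZIP5, both of the ZIP family of zinc and iron transporters, were the genes among the 58 whose annotated products are metal transporters. IRT3 had 65.3, 41.6, 35.5, 33.2, 23.96 and 12.99 RPKM on -Fe, against 96.5, 77.3, 48.97, 103, 64.5 and 69.03 RPKM on +Fe and 68.3 RPKM at 0 h. Its -Fe value at 36 h was lower than all 12 others, with ratios of -2.32 to +Fe and -2.31 to 0 h. ZIP5 had 21.8 RPKM on -Fe at 36 h, against 53.7 RPKM on +Fe and 64.98 RPKM at 0 h, with ratios of -1.10, -0.77 and -1.26 at 24, 30 and 36 h. For comparison IRT1, the main ferrous iron importer of the epidermis, had a log2 ratio of 7.36 to +Fe at 36 h. The table held 36 genes with products named as transporters or channels, of which 6 were low and 7 were high against +Fe at 36 h.

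Enzymes of defence metabolites and detoxification were 9 of the 58, and 7 of these were high on +Fe at 6 h. IGMT2, IGMT3 and IGMT4 are methyltransferases of indole glucosinolates, sulfur compounds that deter herbivores and microbes, and they are neighbours on chromosome 1. IGMT2 and IGMT3 share 634 bases at 97.95% identity, so reads may have been split between them and their separate levels are less certain. IGMT3 had 141, 41.9, 31.98, 9.89, 6.31 and 5.89 RPKM on -Fe, against 676, 253, 59.6, 82.4, 60.8 and 25.4 RPKM on +Fe and 34.9 RPKM at 0 h. The peak at 6 h was there in both media, at 141 RPKM on -Fe and 676 RPKM on +Fe, and from 24 h it was at most 9.89 RPKM on -Fe and at least 25.4 RPKM on +Fe. IGMT2 had 701, 308, 229.7, 85.6, 54.3 and 54.2 RPKM on -Fe, against 1999.8, 1219.9, 504, 359.7, 420.4 and 219 RPKM on +Fe and 163 RPKM at 0 h. Its course had the same shape and its ratio was -1.99 at 36 h. IGMT4 had 473, 196, 177, 68.7, 42.8 and 27.2 RPKM on -Fe, against 981, 719, 355, 309, 321 and 142 RPKM on +Fe and 114 RPKM at 0 h. All 3 were low against +Fe at all 6 hours, and their ratios at 30 h were -2.93, -3.08 and -2.88.

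GSTF6 and GSTF7, glutathione transferases next to each other on chromosome 1, showed the same peak. GSTF7 had 1480.4, 474, 353, 204, 139 and 131 RPKM on -Fe, against 3431, 1727, 613, 562, 594 and 461 RPKM on +Fe and 433 RPKM at 0 h. GSTF6 had 678, 261, 164, 113, 78.01 and 108 RPKM on -Fe, against 2068, 1011, 322, 333, 315 and 267 RPKM on +Fe and 218 RPKM at 0 h. Both were above 0 h on -Fe at 6 h and below it from 18 h, and their ratios to +Fe at 36 h were -1.81 for GSTF7 and -1.30 for GSTF6. AT3G46700 and AT3G46690, adjacent glycosyltransferase genes on chromosome 3, were less alike. AT3G46700, among the 5 most abundant of the 58, had 2174, 1842, 1907, 1425, 1310.5 and 933 RPKM on -Fe, against 1884, 2222, 2215, 2197, 2324 and 1713 RPKM on +Fe and 1863 RPKM at 0 h. It was steady on +Fe and passed the threshold only at 30 and 36 h. AT3G46690 was at 497 RPKM on +Fe at 6 h, above its 175 RPKM at 0 h, and had 91.3 RPKM on -Fe against 189 RPKM on +Fe at 36 h. AT1G30720, a berberine bridge enzyme-like oxidase, had 175 RPKM on -Fe at 36 h, against 395 RPKM on +Fe. NIT4, a nitrilase that detoxifies beta-cyanoalanine, was higher on -Fe at 18 h, with 43.5 RPKM on -Fe against 25.1 RPKM on +Fe, and had 18.4 RPKM on -Fe against 35.4 RPKM on +Fe at 36 h.

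Kinases, receptors and calcium proteins were 6 of the 58. TCH3, a calmodulin-like protein known from touched plants, had 1982, 955, 803, 392, 247 and 379 RPKM on -Fe, against 4534, 2824, 1132, 1829, 1327 and 956 RPKM on +Fe and 866 RPKM at 0 h. It peaked at 6 h in both media and its ratio was lowest at 30 h, at -2.42. Its transcript shares 272 bases with AT2G41105 and 243 bases with AT2G09220, both on the other strand. AT3G22060, a secreted receptor-like kinase relative, had 272, 208, 124, 125, 86.02 and 75.4 RPKM on -Fe, against 770.5, 618, 343, 309, 329 and 249 RPKM on +Fe and 168 RPKM at 0 h. It was low at every hour, with ratios between -1.92 at 30 h and -1.29 at 24 h. AT5G49760, the receptor kinase known as the hydrogen peroxide sensor HPCA1, had 31.3 RPKM on -Fe at 36 h, against 80.5 RPKM on +Fe and 99.4 RPKM at 0 h. WAKL6, a wall-associated kinase-like protein, had 18.4 RPKM on -Fe against 37.9 RPKM on +Fe at 36 h. AT4G25030 and AT1G74490 were the steady kinases, with ratios of -0.996 and -0.90 at 36 h.

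Regulators were also 6 of the 58. LBD39, a LOB-domain factor known for its response to nitrogen, had 94.96 RPKM on -Fe at 36 h, against 215 RPKM on +Fe and 230.0 RPKM at 0 h, and its ratio was lowest at 30 h, at -2.10. SIGA, a sigma factor of the plastid RNA polymerase, was low at all 6 hours at a small level, 8.18 RPKM on -Fe against 20.6 RPKM on +Fe at 36 h. LOL1, a zinc finger protein known as a positive regulator of cell death, and AT2G05160, a CCCH zinc finger protein, had ratios of -1.67 and -1.68 at 36 h. AT5G45410, annotated as a B-box zinc finger protein, had a ratio of -1.11 and shares 377 bases with a gene on the other strand.

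Cell wall and surface proteins numbered 5. EXPA17, an expansin that loosens walls, had 281 RPKM on -Fe at 36 h, against 760.0 RPKM on +Fe and 658 RPKM at 0 h, and was low at every hour. BXL1, a beta-xylosidase that trims wall polysaccharides, had its lowest values of 25.6, 13.3 and 32.9 RPKM on -Fe at 24, 30 and 36 h, against 159.9, 76.6 and 75.6 RPKM on +Fe. AT5G05965, annotated as a cell wall protein, had a ratio of -1.12 at 36 h. AT4G15160, a lipid transfer family protein, was the most abundant of the 58 and one of 4 that were low at 36 h alone. AT4G15160 had 18602, 14625, 14499.9, 15589, 9278 and 7256 RPKM on -Fe, against 12122, 13659.8, 17344, 13853, 14023 and 14753 RPKM on +Fe and 15081 RPKM at 0 h. Its -Fe values were above +Fe at 6 h (0.62), within the threshold up to 30 h (-0.60), and -1.02 at 36 h, so it was low only at the hour used to choose the genes.

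**Figure D4:**
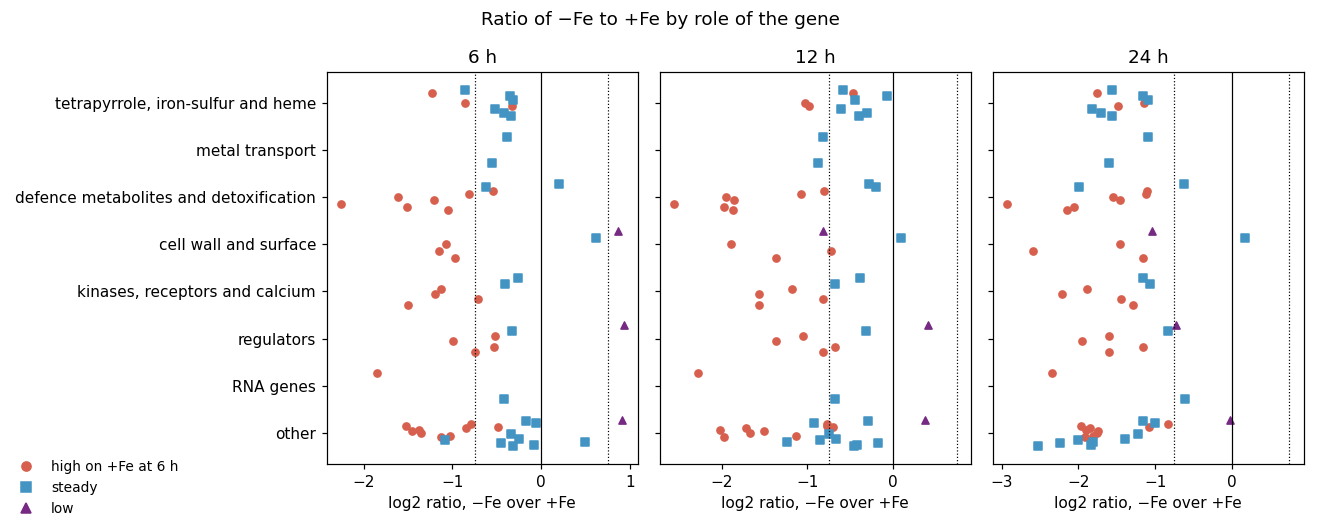
Log2 ratio of -Fe to +Fe (horizontal axis) at 6, 12 and 24 h for each of the 58 genes, arranged by role, with colour and shape for the +Fe course at 6 h and dotted lines at -0.75 and 0.75. The 9 tetrapyrrole, iron-sulfur and heme genes lie mostly right of the left dotted line at 6 and 12 h and all left of it at 24 h, and most defence genes lie left of it at each of these hours.

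The genes with the lowest ratios at 36 h beside HEMA1, IGMT2, IGMT4 and IRT3 were 6 with little or no common role in their annotation. AT3G49160, annotated as a pyruvate kinase, had 8.31, 7.02, 1.58, 1.8, 1.66 and 0.932 RPKM on -Fe, against 10.6, 9.97, 10.1, 15.2, 11.7 and 11.6 RPKM on +Fe and 16.4 RPKM at 0 h. The widest step on -Fe was between 12 and 18 h, and its ratios at 36 h, -2.70 to +Fe and -3.17 to 0 h, rest on values so small that adding 10 in place of 1 RPKM gave -0.98 and -1.27. AT2G36885, annotated as a translation initiation factor, had 87.9, 75.8, 58.7, 39.7, 34.98 and 21.4 RPKM on -Fe, against 92.95, 101, 99.6, 145, 114 and 130.3 RPKM on +Fe and 108 RPKM at 0 h. Its +Fe values stayed within 0.75 of 0 h on the log2 scale while -Fe was lower at each hour than at the one before, and the ratio was -2.55 at 36 h. AT3G43670, a copper amine oxidase, had 61.4, 71.3, 50.6, 24.5, 19.5 and 17.5 RPKM on -Fe, against 84.4, 80.3, 97.3, 119, 122 and 88.95 RPKM on +Fe and 84.2 RPKM at 0 h. It was low from 18 h, and its lowest ratio was -2.59 at 30 h.

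AT4G25830, a protein of the UPF0497 membrane family, had 54.98, 20.5, 13.1, 16.5, 7.6 and 7.5 RPKM on -Fe, against 38.6, 49.8, 37.6, 60.7, 30.6 and 33.7 RPKM on +Fe and 56.9 RPKM at 0 h. The -Fe value was the higher one at 6 h and the lower one from 12 h, and the ratio to 0 h was -2.77 at 36 h. AT1G68650, of the UPF0016 membrane family, had 27.7, 30.9, 18.5, 14.8, 8.11 and 8.27 RPKM on -Fe, against 59.7, 56.4, 34.5, 62.8, 42.2 and 36.1 RPKM on +Fe and 39.3 RPKM at 0 h. It was the only steady gene that was low at all 6 hours. AT5G40510, annotated as a sucrase and ferredoxin-like protein, had 421, 343, 347, 219, 176 and 119.8 RPKM on -Fe, against 500.1, 542, 506, 577, 509 and 466 RPKM on +Fe and 459 RPKM at 0 h. Its ratio widened at every hour from 18 h, to -1.95 at 36 h.

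A further 3 of the genes that were low at all 6 hours had a peak on +Fe. GAT1_2.1, a class I glutamine amidotransferase-like protein, had 595, 256, 111, 146, 90.5 and 129 RPKM on -Fe, against 1517, 819, 498, 497, 511 and 344 RPKM on +Fe and 327 RPKM at 0 h. Its ratio was between -1.35 at 6 h and -2.49 at 30 h, and 553 bases of its transcript are shared with a gene on the other strand. AT5G48430, an aspartyl protease, had 347, 143, 97.3, 43.8, 22.8 and 32.6 RPKM on -Fe, against 902, 588, 215, 167, 152 and 74.8 RPKM on +Fe and 85.9 RPKM at 0 h. AT2G44380, a cysteine- and histidine-rich C1 domain protein, had 325, 130.5, 76.9, 57.1, 26.2 and 33.1 RPKM on -Fe, against 587, 431, 199, 209, 165 and 76.02 RPKM on +Fe and 111 RPKM at 0 h. Both were above 0 h on -Fe at 6 h, AT2G44380 was below it from 18 h and AT5G48430 from 24 h. TIP2, a water channel of the vacuole membrane and among the 5 most abundant of the 58, had 1721, 1222, 1125, 1106, 655 and 1056 RPKM on -Fe, against 1796, 2314, 1618, 2224, 1619 and 1955 RPKM on +Fe and 2643 RPKM at 0 h. It was steady on +Fe at 6 h and was low against +Fe at 12 h (-0.92) and from 24 h.

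The remaining 8 genes were AT1G52200, AT4G36050, AT3G20510, AT2G39410, AT2G19970, AT4G03480, AT1G10340 and AT5G59400. Their ratios at 36 h ran between -1.77 for AT1G52200, a PLAC8 family protein, and -0.85 for AT5G59400, a PGR5-like protein. AT1G52200 had the highest +Fe value at 6 h relative to 0 h among these 8, 2591 against 182 RPKM, and stood at 106 RPKM on -Fe against 362 RPKM on +Fe at 36 h.

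Both RNA genes among the 58 are uncertain in their counting. AT3G41979, annotated as a ribosomal RNA, had 1427, 949, 695, 653, 716 and 359 RPKM on -Fe, against 1904, 1521, 741, 995, 758 and 724 RPKM on +Fe and 1529 RPKM at 0 h. Values were lower than 0 h on +Fe as well from 18 h, -Fe was within the threshold of +Fe up to 30 h, and it was -1.01 at 36 h. All 164 of its bases have an identical copy at AT2G01020, and all are also exon bases of AT3G06355 on the same strand. AT4G20362 lies antisense to AT4G20360, with which it shares 1758 bases, and whether strand was used in counting is not given in the sources used here. AT4G20362 had 50.6, 40.3, 27.04, 13.3, 11.6 and 17.6 RPKM on -Fe, against 185, 200.1, 49.7, 72.1, 50.4 and 35.3 RPKM on +Fe and 30.5 RPKM at 0 h. It was low at every hour, and its ratio to 0 h of -0.76 was the nearest inside that threshold. In all, 14 of the 58 share exon bases with another gene, 12 of them on the opposite strand. Such overlaps were not counted over the whole table. Among the 12, AT4G36050 shares 845 bases with AT4G36052 and AT3G49160 shares 291 with AT3G49155. AT3G26470 shares 345 bases with AT3G26480 and 262 with AT3G05015.

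The 3 genes that were low on +Fe at 6 h were higher on -Fe at that hour. AT1G62975, a bHLH factor, had 26.7, 20.9, 24.9, 15.9, 14.3 and 21.6 RPKM on -Fe, against 13.5, 15.4, 33.6, 27.1, 15.4 and 38.6 RPKM on +Fe and 65.5 RPKM at 0 h. AT3G26470, an RPW8-domain protein, had 171, 98.9, 111, 91.9, 75.95 and 56.7 RPKM on -Fe, against 90.8, 75.9, 77.3, 93.9, 83.01 and 99.3 RPKM on +Fe and 159 RPKM at 0 h. AT4G12520, a lipid transfer family protein, had 278 RPKM on -Fe at 6 h against 151 RPKM on +Fe, and 187 RPKM on -Fe at 36 h against 337 RPKM on +Fe and 554 RPKM at 0 h. Their log2 ratios of -Fe to +Fe at 6 h were 0.93, 0.91 and 0.87. AT1G62975 and AT3G26470 were low at 36 h only, at -0.81 and -0.80, and were the other members nearest inside the +Fe threshold beside SIR.

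Values on the 2 sides of each threshold were close. Nearest outside against +Fe were AT2G18980 and AT5G43520, at log2 ratios of -0.74996 and -0.74975, with 570 RPKM on -Fe against 960 RPKM on +Fe for AT2G18980 and 165 RPKM on -Fe against 278 RPKM on +Fe for AT5G43520. Against 0 h the nearest inside were GUN5, AT1G10340 and AT4G20362, at -0.77, -0.76 and -0.76. The nearest outside were ACHT5, AT1G60000 and CCOAMT, at -0.71, -0.70 and -0.70.

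The remaining gene lists had few members in the table. None of 29 root hair genes, 11 non-hair and epidermal fate genes, 22 nitrate and nitrogen genes, 9 phosphate starvation genes, 15 abscisic acid and drought genes or 13 dark and sugar starvation genes was among the 58, and of these lists 1, 3, 5, 0, 1 and 5 genes were in the table. By product names, the 58 held 6 of 42 kinases and receptors, 6 of 50 glycosyltransferases, glutathione transferases and oxidoreductases, 3 of 57 transcription factors, 3 of 36 transporters and channels, 2 of 34 lipid transfer proteins and lipid enzymes and 1 of 43 cell wall enzymes and structural proteins. The share over the whole table was 58 of 806. Before genes were left out by name, 5 of the 57 transcription factors and 63 of the 806 genes met both conditions.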

How the data were processed

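Sorted epidermal protoplasts were sequenced as single reads of 125 bases. The sample labels and the written methods name different library kits. Per the methods, the authors used fastQC and fastq-mcf for quality and adapters, tophat2 for mapping on TAIR10, RSubread for RPKM and edgeR for calling genes, at a false discovery rate of 0.05 and a log fold change of 0.75. The deposited table holds RPKM for 806 genes as 1 value per group. By its title these are differentially expressed genes of the epidermis. How the 806 were picked among such genes, how the 3 libraries were combined and whether strand was used are not given in the sources used here. The raw reads were not analysed here. The planned test needed values per library and was replaced by counts at the size threshold.

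Log2 ratios of RPKM + 1 were computed and counted at 0.75. The genes described and the gene lists were chosen with earlier results of these data known. Named in full were the 10 genes with the lowest ratio to +Fe at 36 h, the 5 lowest against 0 h, 5 low at every hour with the lowest mean ratio, members of the gene lists, the 5 with the highest mean RPKM, 4 low at 36 h only and the 3 on each side of each threshold, and other genes were named after their values were seen. Of the genes nearest a threshold, 1 is not reported here. All 806 loci matched TAIR10.1 by locus tag, and gene positions, overlaps and sequences come from that RefSeq assembly alone. Copies of at least 125 bases at 97% identity were sought with blastn 2.17.0. Other settings tried were 0.1 and 10 RPKM in place of the added 1, only genes averaging at least 1 RPKM, groups centred on their medians, a threshold of 1 and the mean of the +Fe groups as control. The arithmetic of the ratios and the rule was checked on simulated data, with planted shifts well past the threshold and little noise. Such data do not show how the rule behaves near the threshold or at low levels. Python 3.11.15, numpy 2.4.6, pandas 2.3.3 and matplotlib 3.10.9 were used.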

Additional observations from a re-analysis of the deposited data

Results flagged for a closer look

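Of the 58 genes, 4 had log2 ratios of -Fe to +Fe past 0.75 in opposite directions at different hours. With 1 value per group the difference between hours was not tested. AT1G62975, the bHLH factor, stood at 0.93 at 6 h and at -0.81 at 36 h. AT3G26470, the RPW8-domain protein, stood at 0.91 at 6 h and at -0.80 at 36 h. AT4G12520, the lipid transfer family protein, stood at 0.87 at 6 h and at -0.84 at 36 h. NIT4, the nitrilase, stood at 0.77 at 18 h and at -0.91 at 36 h, and its +Fe value at 18 h, 25.1 RPKM, lay below its +Fe values at 12 and 24 h, 47.5 and 55.4 RPKM.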

How the results depend on the processing

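No paired analysis was possible because the table gives 1 value per group, and for the same reason no replicate could be left out. With a threshold of 1 the rule gave 38 genes, 16 genes were low between -Fe and +Fe at 18 h (6.2% of the table), 1 was low between -Fe and 0 h at 6 h (3.85%), and 13, 14, 12 and 1 were past the threshold between +Fe and 0 h at 18, 24, 30 and 36 h (19.1%, 27.0%, 21.0% and 5.71%). Against the mean of the +Fe groups 3 genes were low at 6 h and 14 at 12 h, where the same-hour control gave 26 and 33, and, where 0 h gave 6 and 18, 14 were low at 12 h and 39 at 18 h (4.34%, 6.7% and 13.2% of the table at 6, 12 and 18 h). Centring the groups on their medians left 26 genes low between -Fe and 0 h at 24 h (6.2%), and a pseudocount of 0.1 put 4 past the threshold between +Fe and 0 h at 36 h (12.0%). The rule itself gave 63 genes with a pseudocount of 0.1, 47 with 10 and 48 after centring, of which 58, 47 and 48 were among the 58. Centring dropped SIR, GUN5, WAKL6, AT1G62975, AT3G26470, AT4G20362, AT1G52200, AT1G10340, AT1G30720 and AT4G03480. All 18 medians moved by less than 1 SD over the genes under both pseudocounts, the minimum mean and centring. For centring and the minimum mean this limit could not be passed. The smallest SD was 0.37, the group median furthest from 0 h lay at -0.27, and the minimum mean left all 58 genes in. With centring the median ratio of -Fe to 0 h at 24 h went from -0.97 to -0.70. That of +Fe to 0 h at 36 h went from 0.047 to 0.15. The sign of a ratio at 36 h could not change under both pseudocounts, the minimum mean or centring, so it is no check. An added constant keeps the order of the values compared, and the minimum mean left each ratio as it was. Centring moved each by less than the threshold, as group medians at 36 h lay at -0.18 (-Fe) and -0.10 (+Fe) from 0 h. Of the ratios of fully named genes at 36 h, 5 moved by over 1.5 times, all with a pseudocount of 10, in AT3G49160, AT4G25830 and IGMT3. Depth is unknown, so counting error could not be given. The cause of these changes was not tested.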
